A study of Homo sapiens with 4 samples.

Results

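The nuclear-encoded subunits of the mitochondrial respiratory chain and ATP synthase were followed in human cardiomyocyte cultures of 2 developmental origins. Members were the gene symbols that begin with NDUFA, NDUFB, NDUFC, NDUFS or NDUFV and a number, the SDH genes, the UQCR genes, the COX genes from COX4 to COX8, the ATP5 genes and CYC1 and CYCS. COX6A1, COX6A2 and COX7A1, which include muscle-type isoforms, were left out of the set. The rule found 87 genes of the 23615 symbols in the gene table, and each had 1 row. Of these, 81 are classed subunits and 6 matched by name only, namely 2 pseudogenes (ATP5EP2 and UQCRBP1), a read-through transcript of ATP5J2 and its neighbour (ATP5J2-PTCD1), ATP5S, ATP5SL and COX7A2L. Both groups were grown from RUES2 cells, a wild-type human embryonic stem cell line, with the induction that the study calls A100/B5, a high activin A and low BMP4 dose. Cells of the CPC group followed the standard cardiac protocol through cardiac progenitor cells, without VEGF, and this protocol as the study draws it includes XAV-939 at an earlier step. Cells of the ECsXAV group were given VEGF from day 2 to form hemogenic endothelium. The study's medium for this step also held bFGF and BMP4, on another base medium than the cardiac protocol. The cells were then directed to cardiomyocytes with 2 µM XAV-939, a tankyrase inhibitor that lowers Wnt/β-catenin signaling. The study names a lower XAV-939 dose in the cardiac protocol, so medium, growth factors and the inhibitor's dose and timing differ with the group. Poly-A RNA was taken at day 14 from unsorted cells, so other cell types of the cultures are included, with 2 biological replicates in each group and 4 libraries in all. All cultures came from 1 cell line.

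The respiratory chain sits in the inner mitochondrial membrane. Complexes I and II pass electrons from NADH and succinate to ubiquinone, complex III passes them to cytochrome c, and complex IV passes them to oxygen. Complexes I, III and IV pump protons across the membrane, and complex V, the ATP synthase, lets them flow back to make ATP. Heart muscle is among the tissues richest in mitochondria and relies on this pathway for most of its ATP. The chain also holds subunits encoded by mitochondrial DNA, which were not analysed here.

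Sequences of UQCRH with its copy and of an ATP5C1 exon are shown first because results below turn on them. The first set is the coding sequence of UQCRH, the hinge protein of complex III, and of its intronless copy UQCRHL, read from the GRCh37 genome with GENCODE gene models. UQCRH lies on the plus strand in 4 coding parts within chr1:46769439-46782253 and UQCRHL on the minus strand at chr1:16133872-16134144. Capitals mark the 4 bases of 273 that differ between them.
UQCRH: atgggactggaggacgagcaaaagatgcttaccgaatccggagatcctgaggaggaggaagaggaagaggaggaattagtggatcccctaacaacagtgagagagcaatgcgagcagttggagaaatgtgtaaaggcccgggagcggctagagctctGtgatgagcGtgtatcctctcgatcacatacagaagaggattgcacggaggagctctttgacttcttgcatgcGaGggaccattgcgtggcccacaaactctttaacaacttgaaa
UQCRHL: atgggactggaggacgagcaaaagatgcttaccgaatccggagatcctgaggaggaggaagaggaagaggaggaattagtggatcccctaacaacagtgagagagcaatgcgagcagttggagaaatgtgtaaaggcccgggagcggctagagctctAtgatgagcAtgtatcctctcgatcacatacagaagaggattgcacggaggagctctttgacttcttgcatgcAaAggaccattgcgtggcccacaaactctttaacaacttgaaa
The 2 sequences are 98.5% identical, and 122 of the 224 windows of 50 bases in UQCRH (54.5%) occur unchanged in UQCRHL. A fragment within such a window could be assigned to either gene, so the split of FPKM between them is uncertain.

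The second sequence is exon 9 of ATP5C1, the gene of the gamma subunit, which forms the rotor shaft of ATP synthase. This exon of 37 bases lies at chr10:7848937-7848973 of GRCh37 on the plus strand. It is present in the liver-type transcript and skipped in the heart-type transcript. Capitals mark the exon and lower case the 20 bases of intron on each side.
ATP5C1 exon 9: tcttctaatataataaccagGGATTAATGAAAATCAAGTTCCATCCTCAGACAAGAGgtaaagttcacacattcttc

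Values are FPKM, in which the fragments of a gene are divided by its exon length and by the mapped fragments of the library, as the authors computed them. FPKM are per length, which allows a rough comparison of levels between genes. The canonical GENCODE transcripts of 83 tested members ran from 156 to 11660 bases. How far length affects the ranks of members by FPKM was not tested. The summed FPKM of a library lay between 284594 and 316502. Total depth is unknown. Steps in the values of weakly expressed genes gave the CPC libraries 86.9% and 79.8% of the depth of ECsXAV replicate 1, and the other ECsXAV library 50.1%. The cardiomyocyte markers were all detected, with a summed level of 18300 to 19300 FPKM in ECsXAV and 16200 to 17000 FPKM in CPC, and of the 14 markers 2 passed an adjusted p of 0.05 as lower and 1 as higher in CPC. Endothelial markers summed to 28.7 to 30.2 FPKM in ECsXAV and 25 to 27.2 FPKM in CPC, with 8 of 12 under 1 FPKM on average. Blood markers summed to 4.79 to 7.71 and 1.18 to 1.67 FPKM, with PTPRC listed at 0 in every library.

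Other marker lists moved with the groups. Proliferation markers summed to 119 to 140 FPKM in ECsXAV and 57.3 to 64.9 FPKM in CPC, with 7 of the 11 tested lower in CPC at an adjusted p under 0.05. Smooth muscle and fibroblast markers summed to 482 to 488 and 244 to 268 FPKM, with 4 of the 9 tested lower in CPC. Hepatic and endoderm markers summed to 33.5 to 41.5 and 16.6 to 18.7 FPKM with 3 of 4 lower, skeletal muscle markers to 30.1 to 30.4 and 46.5 to 52.2 FPKM with 1 of 4 higher, and pluripotency markers to 9.61 to 13 and 5.59 to 5.85 FPKM with NANOG listed at 0 throughout. Of all 12398 genes with a mean of at least 1 FPKM, 1.96% were lower and 0.928% higher in CPC at that adjusted p by limma. The part of these cells and markers in the results below was not tested.

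Respiratory chain genes were among the abundant transcripts of both groups. The 87 members together made up 4.58% ± 0.00115 (SD, n = 2) of all FPKM in ECsXAV and 3.97% ± 0.314 (SD, n = 2) in CPC. By library the share was 4.578% and 4.577% in ECsXAV and 3.746% and 4.19% in CPC. Both CPC libraries were below both ECsXAV libraries, but the exact permutation test over 2 against 2 libraries cannot give a two-sided p below 0.333. In bulk RNA, fewer cells of a type and less RNA per cell cannot be told apart.

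Of the 87 members, 79 had a mean over the 4 libraries of at least 10 FPKM, 41 of at least 100 FPKM and 4 of at least 500 FPKM. By median FPKM, subunits of complexes IV and V ranked highest. The median subunit stood at 290 FPKM in the F1 head of complex V, 208 FPKM in its Fo part and stalk, and 198 FPKM in complex IV. It stood at 102 FPKM in complex III, 77.5 FPKM in complex I and 46.0 FPKM in complex II. Complex I held 27.2% and 27.0% of the members' summed FPKM in ECsXAV and 28.1% and 28.8% in CPC. Complex IV held 28.0% and 28.7% against 26.9% and 27.2%, and complex V 32.1% and 31.5% against 32.8% and 31.9%. The balance between complexes moved little between libraries, though the shares of complexes I and IV did not overlap between the groups. Complex III held 8.78% and 8.87% in ECsXAV and 8.21% in both CPC libraries.

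**Figure D1:**
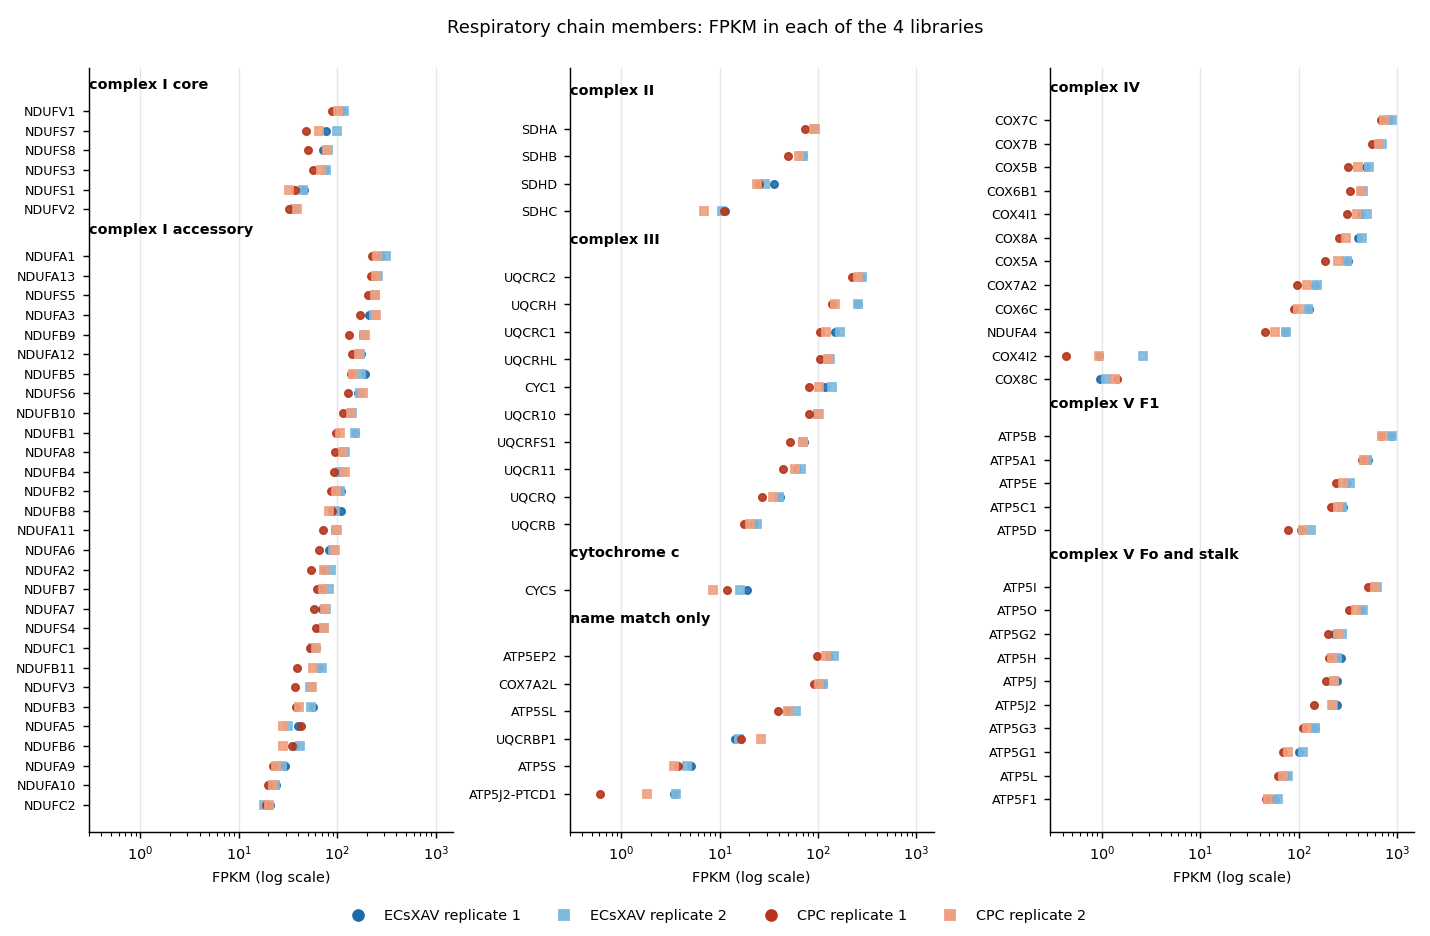
FPKM (log scale) of each member in each library, grouped by complex and ordered by mean level. Blue symbols are the 2 ECsXAV libraries and red symbols the 2 CPC libraries; COX6B2, COX7B2 and ATP5L2, at or near 0, and 1 other member are not drawn. Most classed subunits lie between 10 and 1000 FPKM. CPC replicate 1 lies below CPC replicate 2 for 75 of the 84 tested members, against 6052 of all 12398 genes tested.

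The question of the comparison is whether cardiomyocytes that passed through hemogenic endothelium carry the same level of respiratory chain transcripts as those from cardiac progenitors. Fold changes below are CPC minus ECsXAV on the log2(FPKM + 1) scale, tested with limma over the 12398 genes with a mean of at least 1 FPKM and adjusted by Benjamini-Hochberg over all of them. COX6B2, COX7B2 and ATP5L2 did not reach that mean, so 84 were tested. Nearly all had a lower value in CPC, by a small amount. The fitted fold change was below 0 for 82 of the 84 (97.6%), against 50.8% of all genes tested. Its median was -0.29 among the members and -0.005 over all genes tested, and the median member had 82.2% of its ECsXAV level in CPC. Both CPC libraries lay below both ECsXAV libraries for 53 members (63.1%), against 25.4% of all genes tested. The reverse order held for 2 members and for 3024 of all 12398 genes. With 2 libraries a group, groups without overlap are thus common in either direction.

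Single members rarely passed the test. The study's criterion is an adjusted p under 0.05 with a change of over 2-fold. The study took its p-values from DESeq on read counts, while here the criterion was applied to the limma fit on FPKM. No member met it in this fit, and 2.15% of all genes tested did. Without the fold limit, 1 member (UQCRH) was lower in CPC by limma, against 1.96% of all genes tested, and none was higher, against 0.928%. At an unadjusted p under 0.05 by limma, 24 members were lower in CPC and none higher. Of all 12398 genes tested, 10.4% were lower and 975 were higher at that level. The 95% interval of the fold change lay within 2-fold in either direction for 76 of the 84 members, against 87.7% of all genes tested, and it included 0 for 60 members, against 81.8%.

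**Figure D2:**
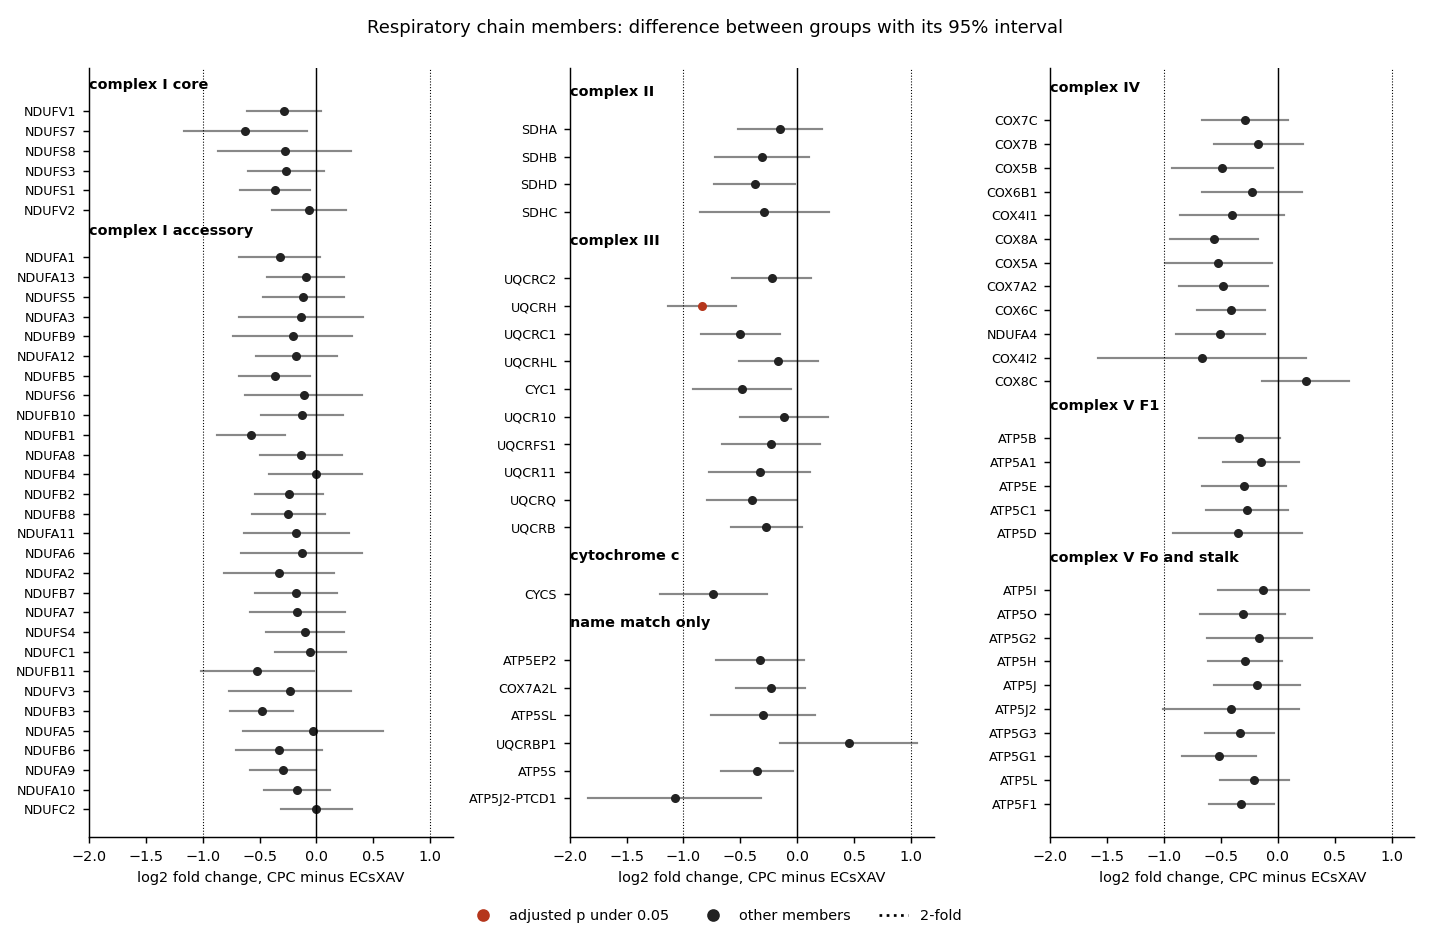
Log2 fold change of CPC minus ECsXAV for the members tested but 1, with its 95% interval from limma (n = 2 per group), grouped by complex. All points but those of COX8C and UQCRBP1 lie left of 0, and only UQCRH, in red, passed an adjusted p of 0.05; dotted lines mark a 2-fold difference.

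The size of the shift rested largely on CPC replicate 1. Against the ECsXAV mean, the median member was at -0.39 in CPC replicate 1, with 80 of 84 lower, and at -0.147 in CPC replicate 2, with 64 of 84 lower. Over all genes tested these medians were 0.009 and -0.017, with 48.6% and 52.2% lower. Between the CPC replicates themselves 75 members were higher in replicate 2, with a median difference of 0.24, while the ECsXAV replicates differed by a median of 0.054. Over all genes tested these median differences were -0.006 and 0.016. Without CPC replicate 1 the median fold change was therefore -0.147. It was -0.172 after quantile normalization of the libraries, with 77 of 84 members below 0.

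The complexes did not differ visibly in direction. The median fold change was -0.195 for the 36 subunits of complex I, -0.299 for the 4 of complex II, -0.299 for the 10 of complex III, -0.445 for the 12 tested of complex IV and -0.298 for the 15 tested of complex V. Every tested subunit of complexes I, II, III and V was below 0, and 11 of 12 in complex IV. Differences between complexes were not tested.

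Complex I takes electrons from NADH. Its 7 nuclear-encoded core subunits carry the FMN and iron-sulfur clusters, and all had lower fitted values in CPC, with no adjusted p under 0.05. NDUFV1, which binds FMN and is the site of NADH oxidation, was the most abundant core subunit at 112.4 and 117.8 FPKM in ECsXAV and 87.77 and 101.0 FPKM in CPC. Its libraries did not overlap between the groups, and the fold change was -0.29 ± 0.12 (SE, limma adjusted p = 0.321). NDUFV2, its iron-sulfur partner, was the least abundant at 36.89 and 37.6 FPKM in ECsXAV and 32.69 and 38.62 FPKM in CPC, and these groups overlapped. NDUFS7, which carries the last iron-sulfur cluster before ubiquinone, had the largest core difference at 76.02 and 99.42 FPKM against 48.39 and 64.88 FPKM (fold change -0.62 ± 0.21 SE, adjusted p = 0.214). Both CPC values lay below both ECsXAV values, but the ECsXAV replicates were further apart than the nearest libraries of the groups. NDUFS1 and NDUFS3 likewise had no overlap, while NDUFS8 and NDUFV2 overlapped.

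The 29 accessory subunits of complex I, which surround the core and serve its assembly and stability, ranged from 19.5 to 267 FPKM on average. Their median fold change was -0.176. In 11 of the 29 (37.9%) both CPC libraries lay below both ECsXAV libraries, against 25.4% of all genes tested. NDUFA1, the most abundant, stood at 281.3 and 312.9 FPKM in ECsXAV and 223.1 and 252.0 FPKM in CPC, without overlap. NDUFC2, the least abundant, stood at 20.78 and 18.21 FPKM in ECsXAV and 18.67 and 20.19 FPKM in CPC, with full overlap and a fold change of -0.0025. NDUFB1, a small membrane-arm subunit, had the largest accessory difference at 151.5 and 150.5 FPKM against 96.19 and 106.3 FPKM. Its replicates were close and its fold change was -0.57 ± 0.12 (SE), with the second-smallest adjusted p of all members at 0.0847. NDUFB11, also of the membrane arm, followed at 65.52 and 69.91 FPKM against 39.26 and 56.08 FPKM (fold change -0.52, adjusted p = 0.259). NDUFB3 stood at 56.37 and 54.04 FPKM against 37.95 and 40.59 FPKM (fold change -0.48, adjusted p = 0.1). Neither had overlap between the groups, and the CPC replicates of NDUFB11 were far apart. In contrast, NDUFB4, NDUFA5 and NDUFC1 had fold changes between -0.054 and -0.0068 with overlapping groups.

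Complex II, which is also the citrate cycle enzyme succinate dehydrogenase, is encoded wholly in the nucleus. SDHA, its flavoprotein, stood at 88.44 and 93.19 FPKM in ECsXAV and 73.59 and 90.9 FPKM in CPC, with overlap. SDHB, the iron-sulfur subunit, stood at 70.48 and 70.4 FPKM against 49.39 and 64.87 FPKM, without overlap. The membrane anchors were lower in level. SDHD stood at 35.45 and 28.74 FPKM against 24.9 and 23.94 FPKM, without overlap, and SDHC at 11.35 and 10.53 FPKM against 11.01 and 6.945 FPKM, with overlap. The 4 fold changes lay between -0.37 and -0.149, and none had an adjusted p under 0.05.

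Complex III passes electrons from ubiquinol to cytochrome c, and UQCRH within it fell in CPC. UQCRH, the acidic hinge protein at the docking site between cytochrome c1 and cytochrome c, stood at 256.6 and 257.5 FPKM in ECsXAV and 139.0 and 148.1 FPKM in CPC. The replicates of each group lay close together and the groups were well apart. CPC held 55.9% of the ECsXAV level, a fold change of -0.84 (95% interval -1.13 to -0.54, limma adjusted p = 0.0413). The call is close to the threshold and was lost with no filter on low FPKM (limma adjusted p = 0.079) and with a replicate block (0.0541). In those fits fewer of all genes passed as well, 20 and 195 against 358 as reported. A fit without 1 library leaves a single library in a group, so only its fold change is given. Over the 4 such fits it stayed between -0.88 and -0.79.

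UQCRHL, whose coding sequence is shown above beside that of UQCRH, stood at 125.8 and 133.0 FPKM in ECsXAV and 105.9 and 125.4 FPKM in CPC (fold change -0.165, adjusted p = 0.581). UQCRH was 67.1% and 65.9% of the pair in ECsXAV and 56.7% and 54.2% in CPC. Summed over the pair, which depends less on how shared fragments were split, the level was 382.4 and 390.5 FPKM against 244.9 and 273.5 FPKM. The difference of the sums was -0.58 on the log2(FPKM + 1) scale, without overlap and smaller than that of UQCRH taken alone. A sum of FPKM over genes of different length is not itself a level per length.

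The other complex III subunits had smaller differences, and none passed the test. UQCRC2, a core protein, was the most abundant at 275.3 and 283.4 FPKM against 222.4 and 256.4 FPKM, without overlap. UQCRB, a small subunit near the ubiquinone site, was the least abundant at 22.18 and 24.05 FPKM against 17.71 and 20.33 FPKM, also without overlap. UQCRC1, the partner of UQCRC2, had a fold change of -0.50, CYC1, which is cytochrome c1, one of -0.49, UQCRQ one of -0.40 and UQCRFS1, the Rieske iron-sulfur protein, one of -0.23. Only UQCR10 of the 10 subunits overlapped between the groups.

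CYCS, the somatic cytochrome c that carries electrons from complex III to complex IV, was one of the weakest members at 19.05 and 16.2 FPKM in ECsXAV and 11.86 and 8.64 FPKM in CPC. The groups did not overlap, and unlike most members it was lower in CPC replicate 2 than in CPC replicate 1. Its fold change was -0.74 (95% interval -1.21 to -0.27), with an adjusted p of 0.124 by limma.

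Complex IV, cytochrome c oxidase, had the most negative median of the complexes, at -0.445. COX7C, its most abundant subunit, stood at 821.9 and 898.4 FPKM in ECsXAV and 679.1 and 728.8 FPKM in CPC, without overlap. COX8A, the ubiquitous form of subunit 8, stood at 397.0 and 435.2 FPKM against 258.8 and 305.8 FPKM (fold change -0.56, adjusted p = 0.143). COX5A and COX5B, which line the matrix side of the enzyme, had fold changes of -0.53 and -0.49. NDUFA4, a subunit named for complex I and now placed in complex IV, had one of -0.51. COX7A2 and COX6C had fold changes of -0.48 and -0.41. Of the 12 tested subunits, 10 had both CPC libraries below both ECsXAV libraries (83.3%, against 25.4% of all genes tested). None passed an adjusted p of 0.05.

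Several complex IV subunits exist as isoforms with restricted tissue use, and the ubiquitous form made up nearly all of each pair. COX4I1 stood at 426.1 and 493.9 FPKM in ECsXAV and 307.6 and 389.2 FPKM in CPC, without overlap. COX4I2, the isoform known from lung and from low oxygen, stood at 0.936 and 2.61 FPKM against 0.431 and 0.938 FPKM and made up 0.14% to 0.526% of the pair. Its groups overlapped slightly and its interval ran from -1.58 to 0.24. COX6B1 stood at 429.0 and 451.1 FPKM against 331.8 and 426.2 FPKM, without overlap, while COX6B2, a testis isoform, did not exceed 0.107 FPKM. COX7B stood at 657.2 and 696.6 FPKM against 555.3 and 647.7 FPKM, without overlap, while COX7B2 was listed at 0 in every library. COX8C, a testis isoform of subunit 8, was the only tested classed subunit with a fitted fold change above 0, at 0.959 and 1.09 FPKM against 1.42 and 1.37 FPKM, and its adjusted p was 0.47.

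Complex V makes ATP. ATP5B, the catalytic beta subunit of the F1 head, was the most abundant member of all at 871.9 and 887.7 FPKM in ECsXAV and 682.2 and 707.4 FPKM in CPC. The groups did not overlap, and the fold change was -0.34 ± 0.14 (SE, limma adjusted p = 0.292). ATP5D, the delta subunit of the central stalk, was the least abundant of F1 at 104.5 and 133.5 FPKM against 77.62 and 109.4 FPKM, with overlap. ATP5A1, the alpha subunit, was at 510.8 and 491.9 FPKM against 439.9 and 462.9 FPKM, without overlap.

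The Fo part and the stalks ranged up to 575 FPKM on average. ATP5I, subunit e, was the most abundant at 576.0 and 622.4 FPKM in ECsXAV and 504.5 and 595.5 FPKM in CPC, with overlap. ATP5L2, a copy of ATP5L, was listed at 0 in every library. ATP5G1, ATP5G2 and ATP5G3 encode the same mature c subunit of the rotor ring with different import sequences. ATP5G1 stood at 101.7 and 110.1 FPKM against 68.61 and 78.56 FPKM, without overlap (fold change -0.52, adjusted p = 0.121). ATP5G2 stood at 229.8 and 273.2 FPKM against 198.3 and 252.3 FPKM, with overlap (fold change -0.163). ATP5G3 stood at 146.1 and 147.6 FPKM against 110.4 and 122.2 FPKM, without overlap (fold change -0.34). The share of ATP5G1 among the trio was 21.0% ± 0.4 (SD, n = 2) in ECsXAV and 17.8% ± 0.6 (SD, n = 2) in CPC, again at the limit of what 2 against 2 libraries can test.

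The 6 name matches that are not classed subunits held the extremes of the set. ATP5J2-PTCD1, the read-through transcript, stood at 3.43 and 3.59 FPKM in ECsXAV and 0.607 and 1.84 FPKM in CPC, with a fold change of -1.08 (95% interval -1.84 to -0.32, adjusted p = 0.149). Its exons are shared with ATP5J2, so this weak value depends on how fragments were assigned. UQCRBP1, a processed pseudogene of UQCRB, was the only member of the 84 besides COX8C with a fitted fold change above 0, at 14.41 and 15.74 FPKM against 16.59 and 26.42 FPKM (adjusted p = 0.396). ATP5EP2, a processed pseudogene of ATP5E, was the most abundant of the 6 at 130.7 and 145.4 FPKM against 98.86 and 121.1 FPKM. It made up 29.3% to 30.5% of its sum with ATP5E in each library. Fragments of such copies cannot be told from those of the parent with certainty.

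Transcript variants of the members were compared in the transcript table, which lists 152 of them. Of the 119 with a mean of at least 1 FPKM, none passed the criterion or an adjusted p of 0.05 by limma, and 26 had an unadjusted p under 0.05. Of all 16504 transcripts tested, 0.0727% passed the criterion, the same share passed the adjusted p alone and 13.1% had an unadjusted p under 0.05. Among the members, 55 had 1 transcript listed and 25 had more than 1 at a mean of at least 1 FPKM. In 10 of these 25 a single transcript held over 90% of the gene's FPKM in every library.

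ATP5C1 was expressed as the heart-type transcript in both groups. The form that skips exon 9, whose sequence is shown above, stood at 282.3 and 276.2 FPKM in ECsXAV and 212.2 and 251.2 FPKM in CPC. The form that includes it reached 0.711 FPKM in CPC replicate 2 and was near 0 in the other 3 libraries, so the heart-type form held at least 99.7% of the gene in each.

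Among these 25 genes the 3 with the largest shifts in transcript share were of complex I. NDUFB5, a membrane-arm subunit, had 83.9% and 90.9% of its FPKM on NM_002492 in ECsXAV and 44.5% and 68.1% in CPC. NM_001199957 and NM_001199958 of NDUFB5 took up the difference, the latter at 0.528 and 0.023 FPKM in ECsXAV and 36.1 and 9.01 FPKM in CPC. The groups did not overlap, but the CPC replicates differed widely and the adjusted p of the 3 transcripts was 0.204 to 0.453. NDUFC1 had 30.4% and 52.6% on NM_001184990 in ECsXAV against 18.9% and 35.2% in CPC, with overlap. NDUFC1 also had 15.5% and 18.7% against 32.1% and 28.4% on NM_001184991, and 29.1% and 26.2% against 46.4% and 36.3% on NM_002494, both without overlap and with adjusted p of 0.195 and 0.318. NDUFV1 had 49.6% and 40.8% on NM_001166102 against 47.6% and 64.6%, also with overlap. NDUFA12 had a shift of 10.4 percentage points between its pair of transcripts, without overlap.

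**Figure D3:**
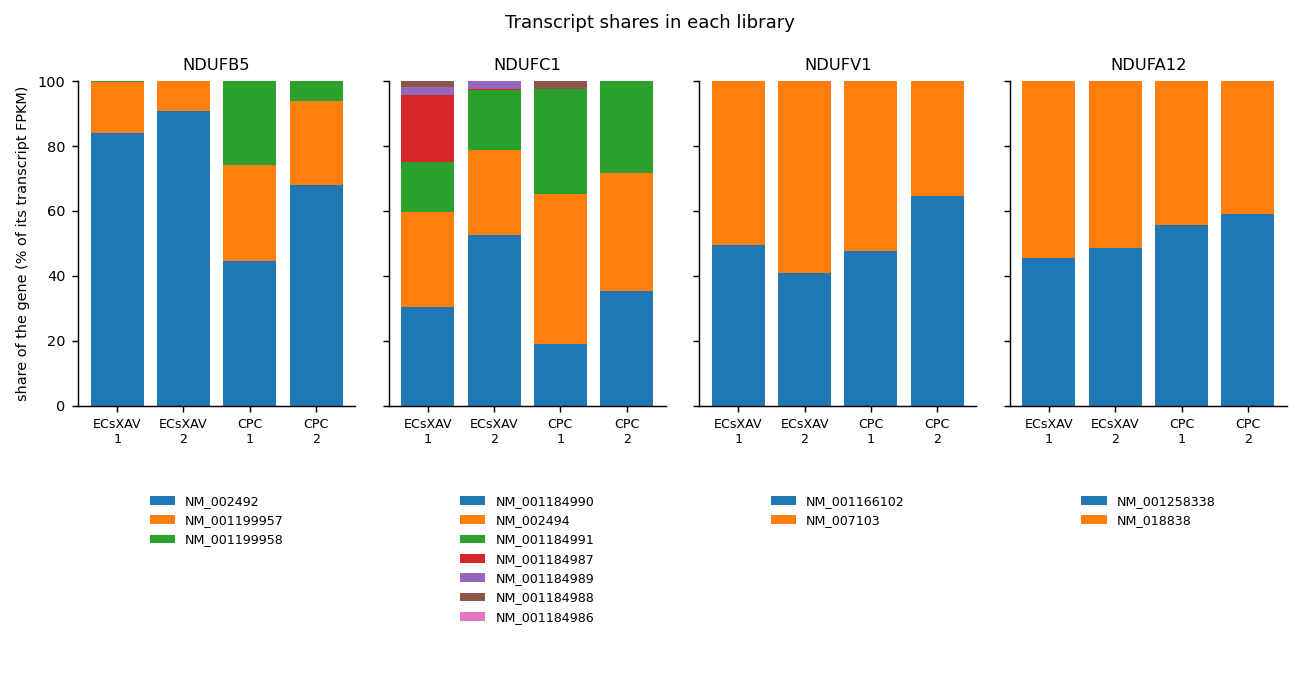
Share of each gene's transcript FPKM (%) held by each listed transcript in each library, for 4 complex I genes. Bars are single libraries without error bars; NM_002492 of NDUFB5 holds 83.9% and 90.9% in ECsXAV and 44.5% and 68.1% in CPC.

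Other mitochondrial lists were set beside the members. The citrate cycle enzymes and pyruvate dehydrogenase had a median fold change of -0.206 with 16 of 17 below 0, and the carriers and outer membrane channels, which move ATP, phosphate and metabolites across the membranes, one of -0.453 with 8 of 9 below 0. Assembly factors of the respiratory complexes had a median of -0.089 with 27 of 39 below 0, and mitochondrial ribosomal proteins one of -0.069 with 49 of 76 below 0. Import components had a median of -0.029 with 13 of 22 below 0, and factors of mitochondrial transcription and genome maintenance one of 0.034 with 5 of 11 below 0. No gene of these lists passed an adjusted p of 0.05 in either direction by limma. At an unadjusted p under 0.05, 3 of 17 citrate cycle enzymes and 5 of 9 carriers or channels were lower in CPC. So were 3 of 76 mitochondrial ribosomal proteins and 1 of 22 import components, and 1 import component was higher. Of all 12398 genes tested, 10.4% were lower and 975 were higher at that level.

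**Figure D4:**
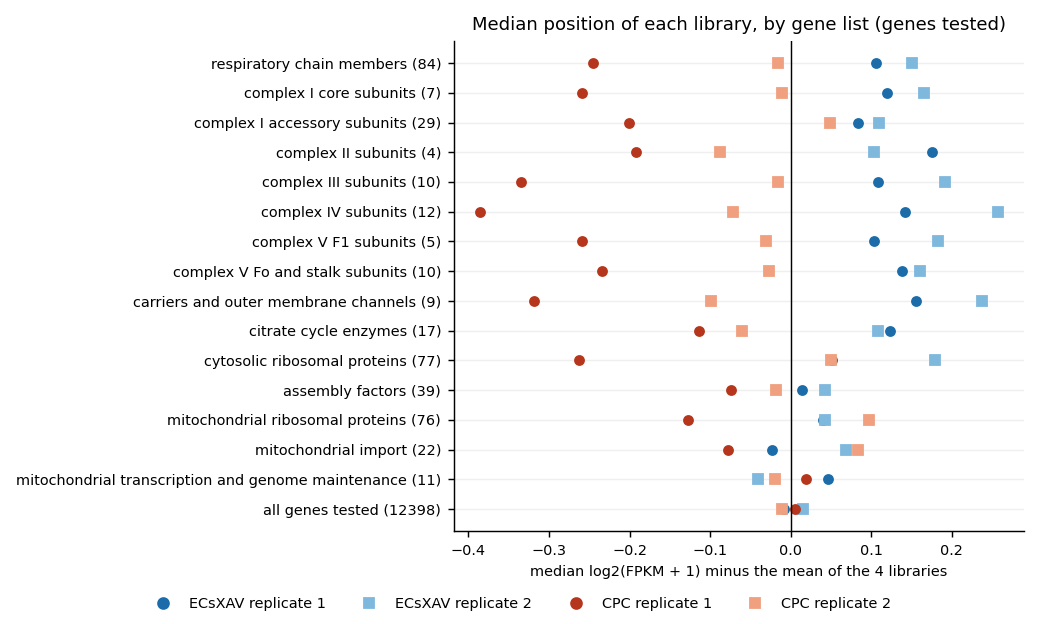
Median over the tested genes of each list of log2(FPKM + 1) minus the gene's mean over the 4 libraries, shown for each library; the number of genes is in parentheses. For the 84 members CPC replicate 1 is at -0.246 and CPC replicate 2 at -0.016, with both ECsXAV libraries above 0, while for all genes tested the 4 libraries lie between -0.011 and 0.015.

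A shift in the same direction was seen in abundant short genes outside the set. The 77 cytosolic ribosomal proteins tested had a median fold change of -0.255 with 67 below 0. Among the 955 other genes with a mean of at least 50 FPKM the median was -0.059 with 58.3% below 0, and among the 178 of these with a canonical GENCODE transcript under 1000 bases it was -0.151 with 73.6% below 0. Of the members, 47 tested had such a short transcript and a median of -0.241, and 36 had a longer one and a median of -0.295. The 64 members with a mean of at least 50 FPKM had a median of -0.276 and the 20 tested under it one of -0.295. CPC replicate 2 was above CPC replicate 1 for 167 of those 178 genes and for 68 of the 77 ribosomal proteins. That order held for 75 of the 84 members and for 6052 of all 12398 genes tested. The part of level, length and CPC replicate 1 in the members' shift was not tested.

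**Figure D5:**
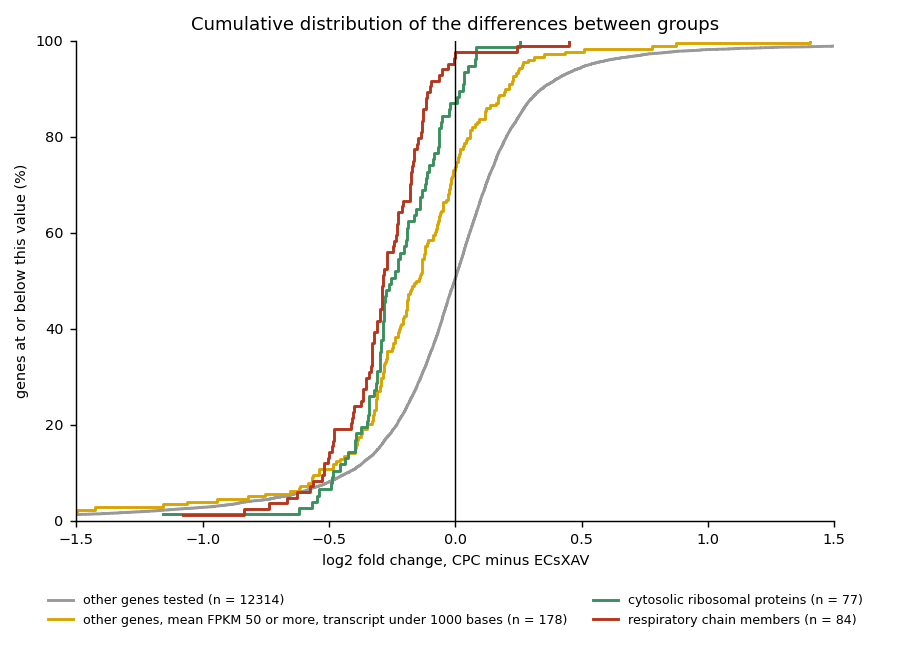
Cumulative share (%) of genes by log2 fold change of CPC minus ECsXAV, for the 84 members, the 77 cytosolic ribosomal proteins, the 178 other abundant genes with short transcripts and the 12314 other genes tested; some ribosomal proteins are also among the 178. The members' curve crosses 0 at 97.6%, against 87.0%, 73.6% and 50.4%.

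The promoters of the members were searched for the binding motifs of factors known to drive respiratory genes. Whether these factors had a part in the members' shift was not tested. RefSeq promoter windows of GRCh38.p14, from 250 bases before to 50 after the start, matched 66 of the 87 members. The NRF1 motif TGCGCNTGC, on either strand, occurred in 13 of the 66 (19.7%) and in 4.9% of all 27305 promoter windows. The ETS motif CCGGAAG occurred in 18 (27.3%, against 10.7%), the YY1 motif AAGATGGCG in 8 (12.1%, against 1.8%) and the TATA box TATAAA in 6 (9.1%, against 12% of all windows). Protein-coding genes held NRF1, ETS, YY1 and TATA matches in 6.5%, 14.2%, 2.7% and 9.6% of windows. Examples are shown with the match in capitals, 1 for each of complexes I, II, III and IV. Each is 60 bases upstream of the start, written in the direction of transcription.
NDUFS6, chr5:1801335-1801394, plus strand, NRF1: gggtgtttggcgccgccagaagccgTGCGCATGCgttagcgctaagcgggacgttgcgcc
SDHD, chr11:112086737-112086796, plus strand, NRF1: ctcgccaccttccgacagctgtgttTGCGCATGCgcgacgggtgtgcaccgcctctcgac
UQCRH, chr1:46303627-46303686, plus strand, ETS: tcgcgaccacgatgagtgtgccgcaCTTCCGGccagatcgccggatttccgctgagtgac
COX5B, chr2:97645901-97645960, plus strand, NRF1: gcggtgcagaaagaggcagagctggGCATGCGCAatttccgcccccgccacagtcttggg
A match is a run of letters and not a measured site. The 31 tested members with an NRF1, ETS or YY1 match had a median fold change of -0.27 (range -0.84 to -0.007), and the 33 with a window but no match had one of -0.247 (range -0.74 to 0.24).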

How the data were processed

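Poly-A RNA-seq libraries of 2 ECsXAV and 2 CPC cultures were analysed. The deposited values are FPKM per gene and per transcript, which the authors computed with Cufflinks and UCSC annotation. Per the labels, hg19 and TopHat 1.3.3 were also used. The paper names Gsnap for a separate count analysis, in which reads with several alignments were left out. The aligner behind the FPKM is therefore not settled, and how the FPKM treat such fragments is not given in the sources used here.

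Fold changes were fitted with limma 3.58.1 (R 4.3.3, eBayes with trend) on log2(FPKM + 1) for genes with a mean of at least 1 FPKM, over all 4 libraries, with Benjamini-Hochberg adjustment over all genes tested. The pseudocount understates changes of low genes. The fit was also run on simulated data with independent noise for each gene and no shift shared by many genes. That run therefore does not bear on the members' joint shift. Tables were summarised with pandas 2.3.3 under Python 3.11.15 and plotted with matplotlib 3.10.9. Coordinates and lengths came from GENCODE 44 on GRCh37, promoters from RefSeq.

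Members and lists were chosen with earlier results of these data known. Values in every library are given for the highest and lowest member of each complex, the 3 largest differences in each direction (only 2 members were higher), members with an adjusted p under 0.05, isoform sets, CYCS and the SDH genes, and for transcripts for the 3 genes with the largest differences in share. ATP5A1, ATP5C1, NDUFB1, NDUFB3, NDUFB11, NDUFS7, NDUFA12 and the sums of UQCRH and ATP5E with their copies were chosen after their values were seen. Values of 1 member are not reported here; it is in the counts and medians. Alternatives were another pseudocount, other filters and scalings, no trend, the replicate block, short RNA genes left out, summed loci and each library left out. No source ties libraries with the same replicate number, and the p-values measure the spread between 2 cultures a group.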

Additional observations from a re-analysis of the deposited data

How the results depend on the processing

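The direction of the members' shift held under every alternative run, with a median between -0.387 and -0.147 and 64 to 82 members below 0. The median was -0.289 with a pseudocount of 0.1, -0.284 at a mean FPKM of at least 5, -0.28 with median-of-ratios scaling and -0.172 with quantile normalization. Leaving out 1 library gave medians from -0.387 to -0.147, the latter without CPC replicate 1. The number of members with an adjusted p under 0.05 was 1 as reported, 0 with no filter on low FPKM, 0 with the replicate block and 5 with short RNA genes left out. Among all genes tested, the number was 358, 20, 195 and 965 in the same fits. With short RNA genes left out, ATP5J2-PTCD1, CYCS, NDUFB1, NDUFB3 and UQCRH passed, while 7.98% of all genes passed in that fit and 2.89% as reported, and 1 member (ATP5J2-PTCD1) also met the criterion, against 0 as reported. All genes past the criterion numbered 266 as reported, 311 with a pseudocount of 0.1, 339 with short RNA genes left out, 205 with quantile normalization, 152 at a mean FPKM of at least 5, 20 with no filter and 176 with the replicate block. No member transcript met the criterion under any alternative run. Leaving out a library leaves 1 in its group, which is then assumed to vary like the other group.

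Some members changed sign. With median-of-ratios scaling NDUFC2 was at 0.004, and with quantile normalization COX7B was at 0.004 and ATP5I at 0.029. With 1 library left out, NDUFC2 ranged from -0.093 to 0.088 (0.051 without CPC replicate 1), NDUFV2 from -0.183 to 0.051, ATP5G2 from -0.336 to 0.01, SDHA from -0.299 to 0.002 and SDHC from -0.586 to 0.01. The positive values of NDUFV2, ATP5G2 and SDHA were those without CPC replicate 1, and that of SDHC was without CPC replicate 2. These 7 are the sign changes among the 34 members that were followed by name through the alternatives. Over all 84 members tested, 2 were above 0 as reported, 7 with quantile normalization and 20 without CPC replicate 1. The difference between replicates 1 and 2 was correlated between the groups at a Pearson of 0.035 (Spearman 0.356) over all genes. Over the 84 members it was 0.458 (Spearman 0.446). With only 2 pairs the sign depends on how the replicates were numbered, so these values cannot show whether the libraries are paired. The replicate block raised the members with an unadjusted p under 0.05 from 24 to 34, while over all genes the share rose from 18.2% to 22.1%.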
